A study of Mus musculus with 20 samples.

Results

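The comparison set the accessible regions of mouse embryonic stem cells that carried CTCF with the R448Q substitution against those of cells that carried WT CTCF. Its members were all peaks of both lists, 317223 of the 1447820 peaks in the 10 lists of the series, with 171719 peaks in the WT list and 145504 in the R448Q list. A peak was called found when at least 1 bp of it overlapped a peak of the other list, and missing otherwise, and peaks were ranked within their own list by the 1 value that the authors deposited for each, read as the fold enrichment of coverage over background. No peak was chosen by how it differed.

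The study made 10 genotypes of E14Tg2a mouse embryonic stem cells (strain 129/Ola), each with 2 replicates profiled by Omni-ATAC-seq, in which a transposase cuts and tags open DNA. In all of them, the WT group included, the cells' own CTCF was tagged for degradation and removed with 500 µM indole-3-acetic acid, and a transgene was switched on with 1 µg/ml doxycycline, for 2 days. The WT group expressed unmutated CTCF from that transgene and the R448Q group CTCF with glutamine in place of the arginine that the name R448Q gives. Both grew without feeder cells in serum with leukemia inhibitory factor, the GSK3 inhibitor CHIR99021 and the MEK inhibitor PD0325901. The lines are clones derived from E14Tg2a, and the labels do not say how many clones stand behind a genotype or whether replicates were separate cultures. The labels do not place the residue in the protein: its position in the seventh zinc finger is general knowledge of CTCF.

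CTCF binds DNA with an array of zinc fingers, of which the central ones, the seventh among them, read the core of its motif. It stops cohesin as cohesin extrudes chromatin loops, and so sets the borders of domains and the contacts between enhancers and promoters. Where it is bound it also holds a short stretch of DNA free of nucleosomes, which ATAC-seq reads as a peak, while most promoter peaks do not need it.

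Each genotype had 1 deposited list that pooled both replicates, so the data hold no replicate error, and WT and R448Q could not be compared by a test. The intervals given are exact 95% binomial (Clopper-Pearson) intervals over peaks. They cover counting error only, and neighbouring peaks are not independent. Background coverage, computed from the steps of the fold values, was 5.96 for WT and 5.45 for R448Q. The peak names carry the library codes 156 and 184 for WT and the consecutive codes 146 and 147 for R448Q. Genotype, clone, depth and library preparation cannot be told apart in 1 list per genotype.

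The label of embryonic stem cells was set beside the peaks at naive pluripotency genes. Of 21 such genes 20 had a peak at a gene end in WT, and the same 20 had one in R448Q, among them Pou5f1, Nanog, Sox2, Esrrb, Klf4 and Zfp42. Dppa3 had none in either list. Other cell types gave similar counts in WT: 10 of 10 trophoblast, 12 of 12 mesoderm, 10 of 11 neural and 9 of 10 fibroblast genes. Primitive endoderm had 5 of 8, and all protein-coding genes 15483 of 21887. A gene-end peak thus does not tell stem cells from other cells. Of the 8 genes of the two-cell-like state that the table of protein-coding genes held, 0 had a gene-end peak in either list. The Ctcf gene itself, on chromosome 8 at 105636474 to 105682922, had a gene-end peak in both lists, with a fold of 9.38 (84.0th percentile) in WT and 9.78 (82.5th percentile) in R448Q. Whether such a peak comes from the endogenous locus or from a transgene is not visible in a peak list, nor is the substitution.

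Because the question is which open DNA differs when the seventh zinc finger is altered, promoter sequence under peaks of only 1 list is shown here. These windows come from RefSeq on GRCm38.p6, whose chromosomes are those of mm10, and are written 5′ to 3′ along the strand of the gene, with capitals marking a match to a short form of the CTCF core (CCA, any 2 bases, AG, any 2 bases, GGC) on either strand. The first pair lies under the strongest promoter peaks missing from the other list in each direction (Btla, WT peak; Gm9, R448Q peak), and the other windows hold the motif inside a peak of 1 list. All were chosen after their values were seen, except Gm16876 and Fkbp2, which the naming rule took.
Btla, chr16:45224087-45224336, plus strand: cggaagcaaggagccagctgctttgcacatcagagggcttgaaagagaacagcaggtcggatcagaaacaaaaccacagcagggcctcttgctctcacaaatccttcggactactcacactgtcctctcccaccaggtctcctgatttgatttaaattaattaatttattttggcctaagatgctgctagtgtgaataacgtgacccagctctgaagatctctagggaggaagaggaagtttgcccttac
Gm9, chrX:37211042-37211291, minus strand: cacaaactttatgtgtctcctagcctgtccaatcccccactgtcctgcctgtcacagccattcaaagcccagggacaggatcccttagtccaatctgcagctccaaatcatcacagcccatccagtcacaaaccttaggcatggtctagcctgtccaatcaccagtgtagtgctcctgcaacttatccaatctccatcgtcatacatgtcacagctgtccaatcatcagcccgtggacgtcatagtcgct
Tmem89, chr9:108914536-108914595, plus strand: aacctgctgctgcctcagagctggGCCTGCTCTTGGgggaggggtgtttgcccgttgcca
Gm4319, chr1:72123821-72123880, minus strand: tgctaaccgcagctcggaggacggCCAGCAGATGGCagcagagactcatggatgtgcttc
Gm41099, chr14:19042150-19042209, plus strand: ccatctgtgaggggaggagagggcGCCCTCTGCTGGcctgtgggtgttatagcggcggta
Gm16876, chr12:91683423-91683447, plus strand: ctgctggctCCACTAGTTGGCttct
Fkbp2, chr19:6979592-6979642, minus strand: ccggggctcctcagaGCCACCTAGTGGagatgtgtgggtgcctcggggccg
The windows of Btla and Gm9 hold no match. In Gm16876 and Fkbp2 the peak reached into the window in 1 list only, while the peak itself overlapped a peak of the other list. For the other 3 the peak itself was missing: the Tmem89 peak (fold 4.78, 51.6th percentile of WT) was found in all 8 other mutants, and the Gm4319 peak (fold 6.20) and the Gm41099 peak (fold 4.19) of R448Q in 0 of them. Other peaks of this kind, not printed, lay between: those of Gm6980 in WT (fold 4.17) and of Col4a5 (6.05) and Gm2921 (4.91) in R448Q were each in 3 other mutants.

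Most open regions were shared, and those missing were mainly weak and narrow peaks. Of WT peaks, 124206 were found in R448Q and 47513 were missing, a background of 27.7% (interval 27.5% to 27.9%). Of R448Q peaks, 123976 were found in WT and 21528 were missing, 14.8% (14.6% to 15.0%). Without chromosomes 1, 3, 8 and 11 the shares moved apart, to 39401 of 131511 WT peaks (30.0%) and 12926 of 105163 R448Q peaks (12.3%). On those 4 chromosomes they were nearly equal, 20.2% of 40208 WT peaks and 21.3% of 40341 R448Q peaks.

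The difference between the directions was smaller between lists of equal length. With both lists limited to the 145504 strongest peaks, 22.3% of WT peaks and 21.6% of R448Q peaks were missing. With the 4 chromosomes also left out, the shares were 24.4% and 19.004%.

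Stronger peaks were shared more often. In the weakest 20% of the WT list 56.3% were missing from R448Q, and in the weakest 20% of the R448Q list 30.9% were missing from WT. In the strongest 20% the numbers were 306 of 34344 WT peaks (0.891%, interval 0.794% to 0.996%) and 146 of 29090 R448Q peaks (0.502%, 0.424% to 0.590%). Where at least 50% of a peak had to be covered these shares were 2.82% and 1.47%, and between lists of equal length 0.632% and 0.536%. The median width was 268 bp for missing and 488 bp for found WT peaks, and 254 bp and 458 bp for R448Q peaks.

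**Figure D1:**
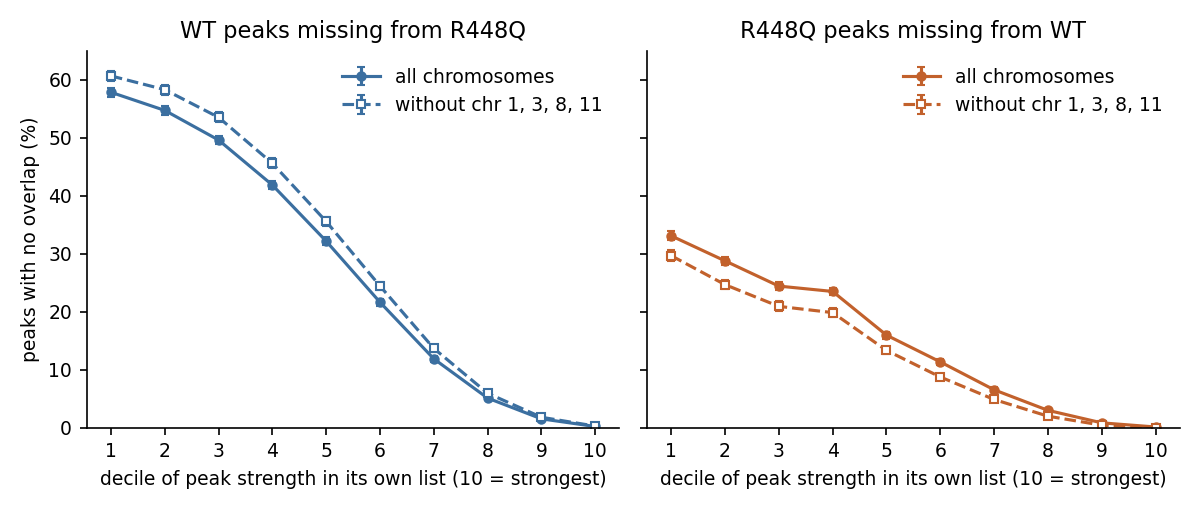
Share of peaks with no overlap in the other list (%, vertical) by decile of fold within the peak's own list (horizontal, 10 the strongest), with exact 95% binomial intervals as bars, for WT peaks (left) and R448Q peaks (right). Filled circles are all chromosomes and open squares leave out chromosomes 1, 3, 8 and 11; the WT share runs from 57.8% in the weakest decile to 0.233% in the strongest, and the R448Q share from 33.1% to 0.144%.

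Among strong peaks the direction of the difference was not the same on the 4 chromosomes as on the rest. Off chromosomes 1, 3, 8 and 11, 280 of 26373 strong WT peaks (1.06%, 0.942% to 1.19%) were missing from R448Q, and 55 of 21424 strong R448Q peaks (0.257%, 0.193% to 0.334%) from WT. On the 4 chromosomes it was the reverse, with 26 of 7971 strong WT peaks (0.326%) and 91 of 7666 strong R448Q peaks (1.19%) missing. Most strong R448Q peaks missing from WT, 91 of 146, thus lay on 4 chromosomes. Most strong WT peaks missing from R448Q, 280 of 306, lay elsewhere. Because the 4 were set apart for high R448Q peak shares, this contrast is not independent of how they were chosen. Over all strengths chromosome 11 did not share the reversal, with 22.8% of WT and 16.6% of R448Q peaks missing.

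The 4 chromosomes held 27.7% of the R448Q list and 23.4% of the WT list, a ratio of 1.18, against 0.944 for all others together. They were set apart for their high R448Q peak shares, so ratios above 1 on them follow from that choice. The ratio was 1.24 on chromosome 1, 1.24 on chromosome 3, 1.20 on chromosome 8 and 1.08 on chromosome 11. Chromosome 17 followed with 1.04, and the other autosomes and X lay between 0.911 and 0.983. On Y, with only 18 WT and 29 R448Q peaks, it was 1.90, and 13 of the 29 were missing from WT. In segments of 10 Mb the ratio was above 1.1 in 20 of 20 on chromosome 1, 16 of 16 on chromosome 3 and 13 of 13 on chromosome 8. On chromosome 11 only 7 of 13 segments passed that value, with a range of 0.946 to 1.31. Some segments also passed it on chromosomes 6, 16 and X (1 each), 14 (4 of 13) and 17 (2 of 9). An excess in every segment was thus limited to chromosomes 1, 3 and 8. Chromosomes 1, 3, 8 and 11 held 40.0% of the R448Q peaks missing from WT and 17.1% of the WT peaks missing from R448Q. Chromosome number in these cells was not analysed here, and its part in the result was not tested.

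**Figure D2:**
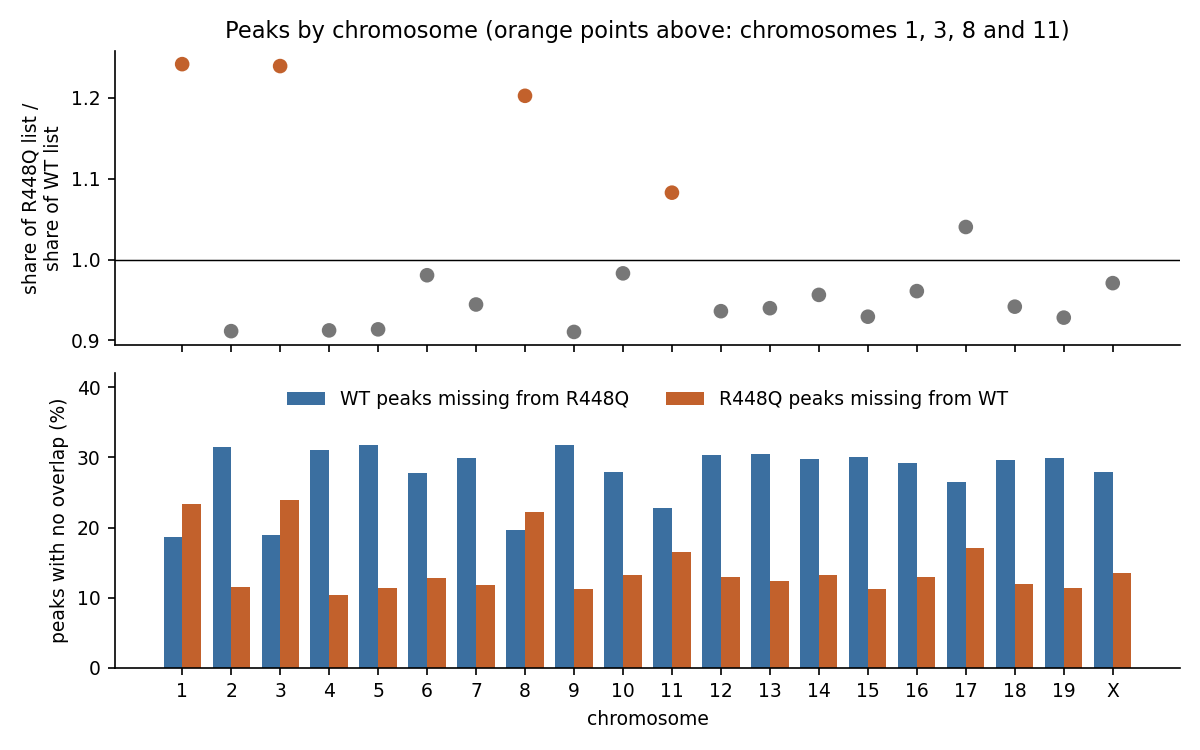
Upper panel, each chromosome's share of the R448Q list divided by its share of the WT list (vertical, 1 means equal shares), with chromosomes 1, 3, 8 and 11 as orange points. Lower panel, bars for the share (%) of WT peaks missing from R448Q and of R448Q peaks missing from WT; on chromosomes 1, 3 and 8 the R448Q bar is the taller one, and on chromosome 11 (22.8% and 16.6%) it stays below the WT bar, as on the other chromosomes drawn (Y is not drawn).

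The end of chromosome 17 stood out as well, a pattern seen in the data and not named in the rule. Beyond 70 Mb it held 1142 WT peaks (0.665% of the list) and 1445 R448Q peaks (0.993%), of which 508 (35.2%) were missing from WT. The list of H455R, the other substitution in the same zinc finger, had 0.694% of its peaks there, close to WT, and the other 7 mutants had 1.02% to 1.06%. R448Q was thus on the side of most mutants, and the excess there was not particular to it. Leaving out this segment along with the 4 chromosomes gave 30.1% of WT and 12.0% of R448Q peaks missing.

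Missing peaks lay away from gene ends. A gene-end peak lies at most 1 kb from the start or the end of a protein-coding gene as RefSeq annotates it, a gene-body peak elsewhere in such a gene, and the rest are intergenic. Of strong WT peaks, 5 of 8391 at gene ends were missing from R448Q, against 158 of 13167 in gene bodies and 143 of 12786 in intergenic DNA. Of strong R448Q peaks, 5 of 8595, 57 of 9817 and 84 of 10678 were missing from WT. Strong gene-end sites were thus held by both lists nearly without exception, and nearly all strong differences were distal.

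**Figure D3:**
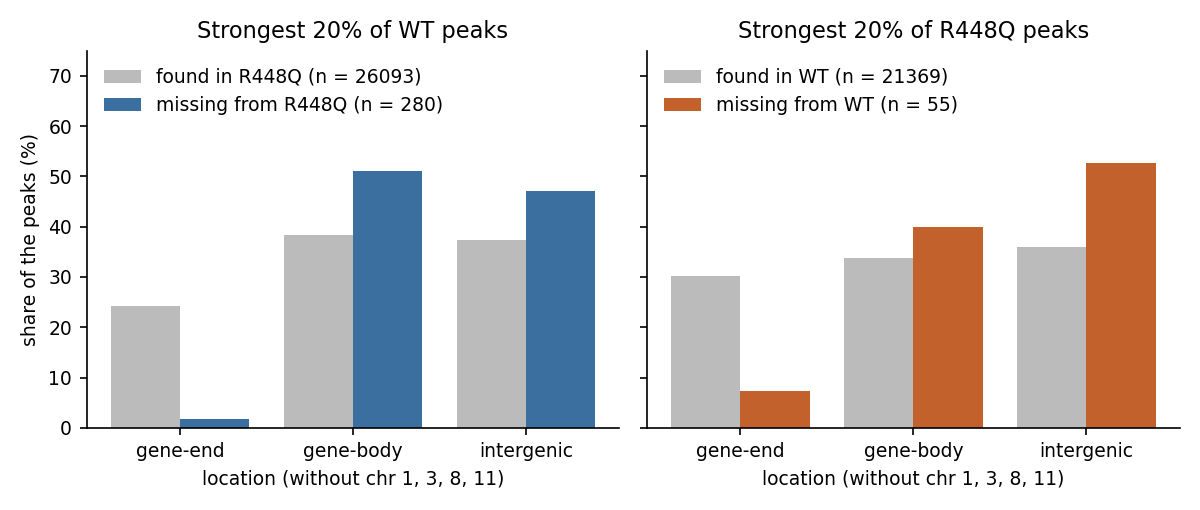
Location of the strongest 20% of WT peaks (left) and R448Q peaks (right) off chromosomes 1, 3, 8 and 11, as the share (%, vertical) of the found peaks (grey) and of the missing peaks (coloured) in each class. Gene ends hold 24.3% of found and 1.79% of missing strong WT peaks, and 30.2% of found and 7.27% of missing strong R448Q peaks.

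Over all strengths the classes were compared after standardising to the same mix of 20 strength bins. WT peaks were missing in 16.9% at gene ends, 30.8% in gene bodies and 26.1% in intergenic DNA. Without the 4 chromosomes these shares were 18.2%, 33.2% and 28.4%. R448Q peaks were missing from WT in 9.40%, 13.5% and 17.5%, and without the 4 chromosomes in 8.43%, 11.3% and 14.4%. In both directions gene ends had the lowest share. Gene bodies and intergenic DNA stood in opposite order in the 2 directions. The gene-body share minus the intergenic share was 4.70 percentage points for WT peaks and -4.05 points for R448Q peaks.

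Peaks present in both lists kept much of their order. Of the shared peaks, 115293 pairs overlapped one to one, and over these pairs Spearman's rho between the fold values was 0.81, a description across peaks that share both lists. It was 0.93 at gene ends, 0.77 in gene bodies and 0.77 in intergenic DNA, and 0.81 without the 4 chromosomes. Percentiles taken over the same pairs moved by more than 50 points in 1675 pairs. Gene-end pairs had a median shift of 1.90 points towards R448Q, and gene-body pairs one of -0.95. Gene-end peaks thus ranked slightly higher among the R448Q peaks, and peaks inside genes slightly lower.

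**Figure D4:**
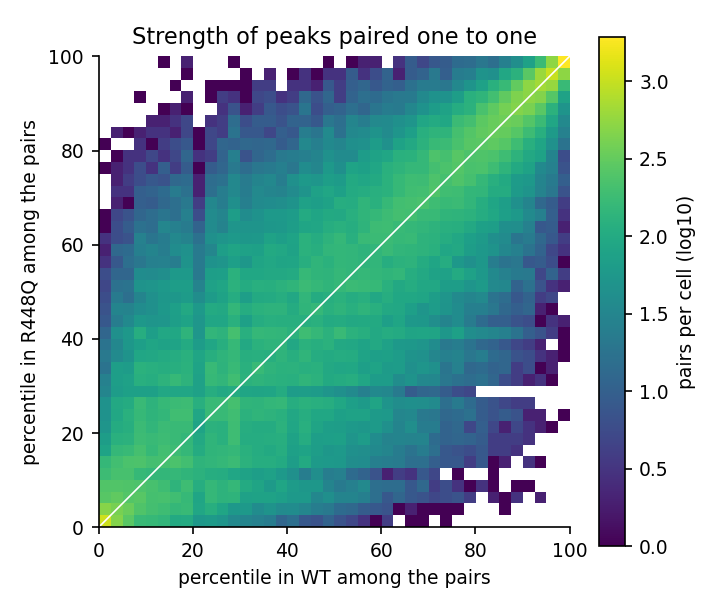
Density of the 115293 peaks paired one to one, with the percentile of fold among the pairs in WT (horizontal) and in R448Q (vertical) and colour for the log10 number of pairs per cell. The pairs gather along the white line of equal rank most tightly at the top right, and the pale and dark bands are tied fold values.

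The pairs that ranked lowest in R448Q for their rank in WT, off the 4 chromosomes, all lay outside gene ends. A peak inside Pard6g, which encodes a cell polarity protein, had a fold of 14.4 in WT and 2.95 in R448Q, from the 93.2nd to the 7.35th percentile of the pairs. One inside Mki67, the gene of the proliferation marker Ki-67, had 12.6 and 2.79, and one inside Chst8, a sulfotransferase gene, 11.8 and 2.74. Peaks inside Diaph2, a formin gene, and 147 kb from Lyzl1 followed. In the first 3 of these genes and near Lyzl1 the peak was also held by all 8 other mutants, and that in Diaph2 by 7. The largest shift to a higher rank was near Rftn1 on chromosome 17 (3.45 in WT and 21.6 in R448Q). Sites near Rsph14 on chromosome 10 (2.73 and 9.61) and Kcnj8 on chromosome 6 (2.87 and 9.61) were also among the largest. None of these 8 peaks lay within 1 kb of a gene end.

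The strongest WT peaks missing from R448Q were distal, and most were present in every other mutant. Among them was a peak in intergenic DNA 361 kb from Adamts9, which encodes a secreted metalloprotease, at chr6:93305090-93305738, with a fold of 17.6 (98.2nd percentile). Another lay 155 kb from Agr3 at chr12:35770260-35770896 (15.7). Both were found in all 8 other mutants. The sites inside Gnai1, an inhibitory G protein gene (chr5:18321520-18322042, fold 14.1), inside Mbnl2, a splicing regulator gene (chr14:120379757-120380132, 13.9), and 151 kb from Lilr4b (chr10:51329284-51329755, 13.7) were also in all 8. A site 228 kb from Adgrl3, an adhesion receptor gene (14.5), was absent from the R339Q list too. A site 31.7 kb from Kitl, the gene of the ligand of the Kit receptor (13.8), was absent from the lists of R339Q, R342C and R377H.

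On the 4 chromosomes the strongest missing WT peaks were weaker. They lay inside Acsl6 (fold 11.4) and Smg6 (11.4) on chromosome 11, inside Schip1 on chromosome 3 (11.2) and 141 kb from Zmat4 on chromosome 8 (10.9). The Smg6 and Zmat4 sites were in all 8 other mutants, the Acsl6 site in 7 and the Schip1 site in 4. Only 40 WT peaks above the 90th percentile were missing from R448Q in all, and all 40 lay off the 4 chromosomes. Among those found in every other mutant, a site 8.10 kb from Tsc1, which encodes an inhibitor of mTORC1 signalling (chr2:28632285-28632893, fold 13.4), and a site inside Adam17, which encodes a sheddase (chr12:21363123-21363537, 13.2), came after those named.

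At gene ends the missing strong WT peaks were few enough to name, a choice made after the values were seen. They were at Btla, which encodes an inhibitory receptor of lymphocytes (chr16:45223976-45224624, fold 12.8), Zfp386 (9.50), Tspan12 (9.34), Ceacam1 (9.20) and Cwc27 (9.20). All but the Zfp386 peak, which R377H lacked too, were found in all 8 other mutants.

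The strongest R448Q peak missing from WT overall lay inside Stpg2 on chromosome 3, with a fold of 18.6 (98.1st percentile). Of the 4 strongest on chromosomes 1, 3, 8 and 11, 3 were in or near Stpg2 (18.6, 14.9 and 13.8). Off these chromosomes the strongest was at the start of Gm9, a predicted gene on X (chrX:37210901-37211753, fold 17.8), whose promoter window is printed above. It was in all 8 other mutants, so WT was the only list of the 10 without it. Those inside Fbn2, a fibrillin gene (14.4), near 4930544G11Rik (14.1) and inside Crybg1 (14.1) followed and were in 7, 5 and 6 of the other mutants. The peaks inside Ttc21b (12.8), 163 kb from Lrig1 (12.8), inside Ppm1h (12.4) and at Clec9a, a dendritic cell lectin gene (12.2), were in 2, 6, 3 and 4.

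The 8 strongest R448Q peaks that no other list held had fold values from 9.46 to 11.6, the 81.2nd to the 88.0th percentile of the R448Q list. The 3 strongest lay 108 kb from Qrfpr and 94.0 kb from S1pr1, a receptor gene for sphingosine-1-phosphate, on chromosome 3 and 7.91 kb from Tarbp1 on chromosome 8. Sites near Zbbx on chromosome 3, near Atp10b on chromosome 11 and at Plxna2, a semaphorin receptor gene on chromosome 1, were also on the 4 chromosomes. Off them lay only the sites inside Adk, the adenosine kinase gene, on chromosome 14 (10.4) and inside Lmo3 on chromosome 6 (9.61).

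Strong peaks missing from R448Q were mostly present in the other mutants. Of the 306, 175 (57.2%) were in all 8 other lists, 64 in 7 and 42 in 6, and 0 were in none. Even so, over all chromosomes every other list held them less often than strong WT peaks in general. For H455R this rested on 2 peaks, and off the 4 chromosomes it did not hold, as H455R held 280 of 280. R339Q held 73.5%, K365T 85.6% and H455R 99.3% of the 306. Of all 34344 strong WT peaks these mutants lacked only 0.964%, 0.303% and 0.119%. Off the 4 chromosomes 163 of 280 (58.2%) were in all 8. By this count, strong WT peaks missing from 1 mutant alone, R448Q with 175 stood beside R339Q with 179 and above Q418R with 84, K365T with 45, S354F and R377H with 32 each, R342C with 19, H455R with 17 and R377C with 5. Without the 4 chromosomes R448Q had 163 and R339Q 131. The R339Q list held 121032 peaks, the fewest of the 10, and the R448Q list 145504, and the part of list length in these counts was not tested. The WT list is shared by all these counts.

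**Figure D5:**
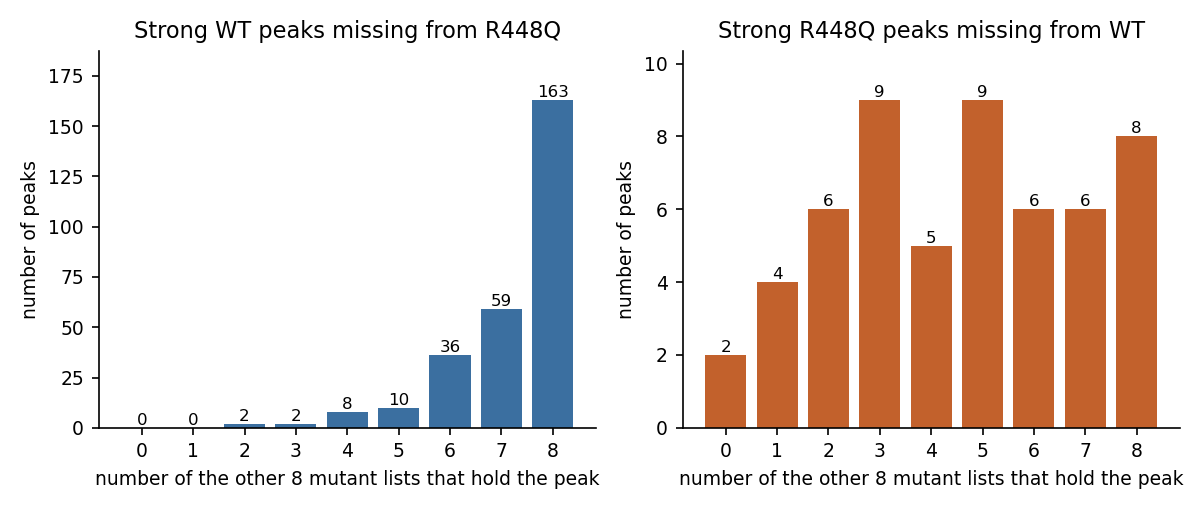
Number of the other 8 mutant lists (horizontal) that hold a strong WT peak missing from R448Q (left) or a strong R448Q peak missing from WT (right), with the number of peaks as bars (vertical), off chromosomes 1, 3, 8 and 11. On the left 163 of 280 peaks stand at 8 lists; on the right the 55 peaks spread over all numbers, with 2 to 9 peaks at each.

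H455R, the other substitution of the seventh zinc finger, whose list is the longest of the mutants with 159957 peaks, held 304 of the 306 strong WT peaks missing from R448Q, and 280 of 280 off the 4 chromosomes, while it lacked 41 of the 34344 strong WT peaks itself. R339Q held 225 of the 306 and the remaining mutants 262 to 290. The sites were chosen for their absence from R448Q, so these counts describe the other lists and do not compare them with R448Q.

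Strong peaks of R448Q that WT lacked had another distribution. Of the 146, 14 were in all 8 other mutants, 10 in none, and the rest spread between. K365T held 121 of them (82.9%) and R377H 107 (73.3%), whereas H455R held 48 and R339Q 45. Off the 4 chromosomes K365T held 47 and R377H 44 of 55. Over all strengths, 2016 WT peaks were missing from R448Q alone (1769 off the 4 chromosomes) and 6772 R448Q peaks were in no other list (3730 off them). At least 1 other mutant held 80.4% of the WT peaks missing from R448Q and 68.5% of the R448Q peaks missing from WT. The same shares over all WT peaks, all R448Q peaks and all strong R448Q peaks are not given here. These values therefore do not show whether the missing peaks are held more or less often than others.

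Missing peaks also stood side by side. Among peaks of the stronger 60% of each list, the longest runs of consecutive missing peaks had 6 members in WT, 12 such runs in all, and 5 in R448Q, 2 such runs. In the WT run of highest mean percentile, at chr7:18327373-18692622 near the pregnancy-specific glycoprotein genes Psg18 and Psg20, 6 peaks with folds of 4.89 to 10.7 were missing, and 0 of these were in all 8 other mutants. The second, 164 kb inside Xylt1, which encodes a xylosyltransferase of proteoglycan synthesis, had folds of 5.32 to 9.63, and 2 of its peaks were in all 8. The R448Q runs lay over 520 kb near Pkdcc on chromosome 17 (5.08 to 8.53) and over 538 kb from Astn1 to beyond Pappa2 on chromosome 1 (4.96 to 8.68). Both lie in the stretches with more R448Q peaks described above. The other WT runs of 6 included ones in Eln on chromosome 5, Cpvl on chromosome 6 and Gas7 on chromosome 11.

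Most genes with a gene-end peak had one in both lists. Among 21887 protein-coding genes, gene-end peaks were present at 15483 in WT, at 15303 in R448Q and at 15018 in both. In WT only there were 465, a background of 3.00% of the genes with a WT gene-end peak, and in R448Q only 285, or 1.86%. Without the 4 chromosomes the numbers were 396 (3.37%) and 192 (1.66%). Their peaks were weak, at a median percentile of 28.5 for WT-only and 30.2 for R448Q-only genes, against 84.7 and 85.8 for all genes with such a peak.

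Some of these calls rest on the edge of a peak. For 37 of the 465 and 28 of the 285 genes the peak itself overlapped a peak of the other list that stopped short of the 1 kb window. Of the 8 genes with the strongest WT-only gene-end peak, 7 (Rc3h2, Ppp2r2b, Cfap97, Phf10, Treml1, Otud5 and Atp6v1b1) were of this kind, and Btla was the exception. In the other direction Oscar, Sema4c, Zfp369, Ms4a10, Acot4 and Ppm1h were of this kind, while Gm9 and Clec9a had peaks with no WT overlap.

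The 15 gene lists, chosen for stem cells, lineages and genome folding, matched 252 protein-coding genes. Of these, 203 had a gene-end peak in WT, of which 5 (2.46%) had none in R448Q, and 201 had one in R448Q, of which 3 (1.49%) had none in WT. The 5 were Rad21, which encodes the kleisin subunit of cohesin (WT fold 4.16, 40.7th percentile), Rtl1, an imprinted gene (3.27), Hoxd11 (2.67), Dcn, the gene of the fibroblast proteoglycan decorin, and Pcdhb11 (2.87), a clustered protocadherin. The 3 were Hoxb5 (R448Q fold 4.88), Pcdha4 (4.81) and Pcdhb8 (4.65). None of the 8 was an edge case, and both shares were near those of all genes. With a window of 2 kb instead of 1 kb, the count of listed genes in WT only was 11 and not 5.

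Around most listed genes WT peaks were missing less often than peaks of the same strength in the whole list. That held for 13 of the 15 lists, and for all listed genes together 25.9% of 3273 WT peaks within 50 kb were missing where equal strength gave 30.1%. Within 50 kb of naive pluripotency genes 120 of 543 WT peaks (22.1%) were missing from R448Q, where peaks of the same strength gave 34.0% over the whole list, and without the 4 chromosomes the values were 23.4% and 35.9%. Near Nanog, 7 of 34 were missing where equal strength gave 14.4, and near Pou5f1 4 of 26 where it gave 10.1. Of the 60 strong WT peaks near naive genes 0 were missing, which allows a share of up to 5.00% and is not distinguishable from the 0.891% of all strong WT peaks. Over all WT peaks within 50 kb of any protein-coding gene 28.0% were missing.

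The neighbourhoods of Hox genes and clustered protocadherins, both families arranged in arrays with many CTCF sites, were among the 13. Around Hox genes 17.7% of 186 WT peaks were missing, where equal strength gave 31.5%, and without the 4 chromosomes 19.5% of 128, where it gave 34.0%. Around the protocadherins, on chromosome 18, 14.9% of 101 were missing, where equal strength gave 30.1%. Around genes of the LIF and STAT3 pathway, which maintains naive pluripotency, the share was 22.9% of 253 (31.3% at equal strength). Lists of other kinds were low too: 15.3% of 118 around neural genes (25.4% at equal strength), 21.3% of 164 around formative and primed pluripotency genes (28.2%) and 22.2% of 135 around fibroblast genes (27.9%). Without the 4 chromosomes only 38 neural peaks were left, with 21.1% missing (32.4% at equal strength). The shares there were 22.0% of 173 for the LIF and STAT3 pathway (33.1%), 24.6% of 118 for formative and primed genes (30.8%) and 26.7% of 86 for fibroblast genes (31.8%).

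Around the genes of CTCF and cohesin the share was the highest of the lists, with 177 of 472 WT peaks (37.5%) missing where equal strength gave 28.3%, and 39.3% against 30.5% without the 4 chromosomes. Among genes above equal strength, Stag1, a cohesin subunit gene, had 28 of 64 missing (18.1 at equal strength). Pds5b, a cohesin regulator gene, had 15 of 31 (6.53), and Nipbl, the cohesin loader gene, 14 of 27 (8.28). Zfp143, a listed gene outside cohesin, had 14 of 26 (8.87). Below equal strength were the cohesin subunit genes Smc3 (3 of 19, 3.96) and Smc1a (0 of 3, 0.359), and Cdca5 (6 of 23, 6.46). Near Ctcf only 5 of 32 were missing, where equal strength gave 9.42. Ctcf lies on chromosome 8, where 19.7% of all WT peaks were missing, against 27.7% in the whole list. Of 524 strong WT peaks near listed genes 5 (0.954%) were missing, close to the 0.891% of all strong WT peaks. They were 1 each near Pds5b (fold 9.34), Ascl2, a trophoblast regulator (9.33), Gata6, a primitive endoderm regulator (9.15), Dlk1, an imprinted gene (9.07), and Dnmt3a, a DNA methyltransferase gene (8.91). The Gata6, Dnmt3a and Ascl2 sites were in all 8 other mutants. No test stands behind these comparisons of lists, and neighbouring peaks within a list share their region.

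Promoter windows covered in only 1 list held the stricter motif in shares whose intervals include the share of all windows. The RefSeq table gave 32851 windows, each of 300 bases from 250 before to 50 after a gene start. The motif occurred on either strand in 2.43% of all windows, in 2.91% of those covered in both lists and in 1.86% of those covered in neither. It occurred in 17 of 665 WT-only windows (2.56%, 1.50% to 4.06%) and in 26 of 739 R448Q-only windows (3.52%, 2.31% to 5.11%), and the intervals overlap. Without the 4 chromosomes the shares were 2.86% of 559 and 3.60% of 500. The looser form (CC, any 3 bases, AG, any 2 bases, GGC), which includes every match of the first, was in 6.62% of WT-only and 9.34% of R448Q-only windows and in 8.61% of all. The covering peak itself overlapped the other list in 169 of the 665 WT-only and 265 of the 739 R448Q-only windows. Where it did not, the stricter motif was in 11 of 496 WT-only (2.22%) and 17 of 474 R448Q-only windows (3.59%). The looser form was there in 5.44% (3.62% to 7.82%) of the WT-only windows, an interval below the share of all windows, and in 9.49% of the R448Q-only windows. Both shares lay between the 12.7% of windows covered in both lists and the 4.40% of those covered in neither. The WT-only interval includes the 4.40%.

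The 6 windows with the motif that the naming rule took were at Gm40564, Gm16973 and Gm16876 for WT and at Gm41492, Fkbp2 and Fam189a1 for R448Q. In all 6 the covering peak overlapped a peak of the other list, and only in Gm16876, Fkbp2 and Fam189a1 did the motif lie inside the peak. A match is a stretch of letters and not a measured binding site. The distal peaks, which make up nearly all strong differences, could not be searched, because no genome sequence was used here.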

How the data were processed

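Omni-ATAC-seq peaks of 20 samples, 2 per genotype, were used as deposited, in 1 pooled list per genotype. Trim Galore, Bowtie2, MACS2, deepTools and the build mm10 are listed in the submitters' processing notes; their versions, and any read shifting, duplicate removal or threshold, are things not given in the sources used here. Each peak's deposited value, which the authors computed over both replicates as the paired library codes show, has no header and was taken as a MACS2 fold, a ratio of peak coverage to background, because of its range and steps. It served only to rank or describe peaks within a list. Read totals were not used here.

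Overlaps of at least 1 bp, ranks, 20 strength bins, RefSeq gene ends (GRCm38.p6, 1 kb) and motif matches were computed with Python 3.11.15, numpy 2.4.6, pandas 2.3.3, scipy 1.17.1 and matplotlib 3.10.9, and checked on simulated data. The strongest 20% are the top 20% of a list by fold. Coordinates are 1-based mm10 positions. Background coverage is 1 divided by a step of the fold values, minus 1. The step was the one that fitted most of the commonest fold values, and 32.8% of WT and 33.8% of R448Q peaks lay on it.

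The naming rule took the 8 strongest missing peaks per direction off chromosomes 1, 3, 8 and 11 and the 4 strongest on them, 8 strongest 1-list genes, all listed genes with a gene-end peak in 1 list, the 2 highest-ranked of the longest runs, the 5 largest pair shifts, 8 peaks missing from or held by R448Q alone, and 3 motif windows per direction. A few peaks that the rule took are not reported here. Members and gene lists were chosen with earlier results of these data known. Alternatives changed the overlap, threshold, list length, gene-end window, bins, motif and chromosomes. No paired or replicate-level comparison was made.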

Additional observations from a re-analysis of the deposited data

How the results depend on the processing

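The values below are given for 4 shares in the order WT peaks missing from R448Q, strong WT peaks missing, R448Q peaks missing from WT and strong R448Q peaks missing. Without chromosomes 1, 3, 8 and 11 they were 30.0%, 1.06%, 12.3% and 0.257%, and also without chromosome 17 beyond 70 Mb 30.1%, 1.07%, 12.0% and 0.246%. With at least 50% of a peak covered they were 31.0%, 2.82%, 17.1% and 1.47%. Searching only the stronger 50% of the other list gave 58.3%, 4.72%, 44.6% and 1.88%. With both lists at the length of the R448Q list they were 22.3%, 0.632%, 21.6% and 0.536%, and off the 4 chromosomes 24.4%, 0.751%, 19.004% and 0.271%. Counting a peak within 100 bp as found gave 27.4% for WT and 14.5% for R448Q peaks. The gene-end minus intergenic difference of WT peaks, -9.19 points, was -11.5 with a window of 500 bp, -6.77 with 2 kb and -10.2 off the 4 chromosomes. The rank correlation of pairs was 0.81 off them and 0.82 where 50% of both peaks overlapped. Off them, 71.1% of R448Q peaks missing from WT were in another mutant. Listed genes with a gene-end peak in WT only numbered 11 with a 2 kb window, and 5 with the 1 kb window. The looser motif was in 6.62% of WT-only windows. In the stronger 50% of each list the share ratio of the 4 chromosomes was 1.14. The settings that combine list length with chromosomes, and that leave out distal chromosome 17, were chosen after seeing the data. In 12 other cases the value stayed within its interval, in another 2 the count of listed genes stayed within 1.5 times its value, and 24 checks of single named peaks left each missing. The 12 include counting repeated intervals for each of the 4 shares, which could not change a value because neither list held repeats. No paired analysis was possible because both replicates of a genotype are in 1 pooled list, so a replicate could not be left out either. The weakest peaks are those nearest the authors' threshold, and 56.3% of the weakest 20% of the WT list was missing; the part of depth in this was not tested.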

Other observations

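Missing peaks gathered inside some long genes. Among 1661 protein-coding genes with at least 15 WT peaks, those off chromosomes 1, 3, 8 and 11 with the most missing peaks beyond what equal strength gave were, chosen after their values were seen, Nedd4l, a ubiquitin ligase gene (43 of 72 missing, 20.8 at equal strength), Rere, a transcriptional co-regulator gene (45 of 84, 26.3), Cadm1, a cell adhesion gene (36 of 64, 18.1), Cux1, a homeobox gene (30 of 46, 12.2), Tenm4, a teneurin gene (56 of 130, 39.1), and Csmd2 (28 of 43, 12.7). At the other end stood the protocadherin cluster on chromosome 18, where Pcdhga3 had 4 of 49 missing and 13.5 at equal strength.

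In the R448Q list, among 1168 genes with at least 15 peaks, Grip1, which encodes a scaffold protein of glutamate receptors (19 of 48 missing from WT, 7.26 at equal strength), Prkce, a protein kinase C gene (14 of 23, 4.56), Sox5, a transcription factor gene (19 of 67, 10.3), Vit (12 of 18, 3.60), Lsamp (12 of 26, 4.33) and Camkmt (13 of 44, 6.10) led. Prkce, Vit and Camkmt lie on chromosome 17 beyond 70 Mb, the stretch with more R448Q peaks.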
